A study of Mus musculus with 2 samples.

Results

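The genes described here are long intergenic noncoding RNAs (lincRNAs) that were well measured in the mouse cerebral cortex. They were chosen by their annotation and by the measured counts. A gene had to have a lincRNA transcript and no protein-coding one, and a mean expected count of at least 100 over the libraries. Genes with an Snhg symbol or a symbol ending in hg, names given to hosts of small RNAs, were left out by symbol. So were 11 named genes (Gas5, Meg3, Rian, Mirg, H19, Kcnq1ot1, Peg13, Airn, Rmrp, Gm26917 and Gm42418). Of 55536 genes in the gene tables, 6053 met the annotation rule, 163 of those reached the count and 17 of those were left out, which leaves 146 members. In 140 of the 146 the count was at least 100 in both animals. Of the 6053 genes, 3710 had no count in either library. Because the counts chose the members, their levels are given as a description and were not tested.

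The tissue was left cerebral cortex, taken at an age of 2 months from males of the hybrid strain B6CASTF1/J, and both libraries form a single group for which the labels name no treatment and no mutant allele. Each library was made from 300 ng of total RNA with ERCC spike-in RNAs added, and the labels number the animals replicate 2 and replicate 1. The labels list separately numbered males under 1 shared donor record, and how the animals are related is not given in the sources used here. With 1 library per animal no difference between the animals has a replicate check, and no p-value is given.

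The libraries held 32142918 expected counts in replicate 2 and 33007629 in replicate 1. Markers of excitatory neurons, inhibitory neurons, astrocytes, oligodendrocytes, microglia and endothelium were all measured, while the liver markers Alb and Apoa1 summed to 0.10 TPM (transcript abundance scaled by length and to a fixed library sum) in replicate 2 and 0.05 TPM in replicate 1. The animals differed in markers of neighbouring regions. All 8 striatal markers were lower in replicate 2, with a summed 171.9 TPM in replicate 2 and 311.8 TPM in replicate 1. The choroid plexus markers Ttr, Folr1 and Kl summed to 92.1 TPM in replicate 2 and 10.4 TPM in replicate 1. The 2 of them averaging at least 10 counts were higher in replicate 2, at log2 ratios over replicate 1 of 3.37 and 0.28.

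Long intergenic noncoding RNAs are transcribed from their own promoters outside protein-coding genes, and most are spliced and polyadenylated like messenger RNAs. Some stay in the nucleus, where Malat1 accumulates in nuclear speckles and Neat1 builds the core of paraspeckles. Others act in the cytoplasm by binding proteins or microRNAs, and several carry microRNA hairpins within their introns or exons. In the brain they are known from neurons and glia alike, and in bulk tissue fewer cells of a type and less RNA per cell cannot be told apart.

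The members with the best-known sequence features are shown first, because their letters are what their known partners bind. The microRNA miR-7 meets a pair of these RNAs, and the base-pairing partners are printed below 5′ to 3′. The first line is the mature miRNA from RefSeq (GRCm38.p6) with its seed, bases 2 to 8, in capitals. The second is the site in 1700020I14Rik, the mouse Cyrano gene, an RNA known to trigger the decay of miR-7, at chr2:119602137-119602161 on the plus strand of mm10, with the bases that can pair in capitals. The third is a stretch of C230004F18Rik (Cdr1os), the gene whose locus also gives the circular RNA Cdr1as, at chrX:61183465-61183584 on the plus strand, with each match to the miR-7 seed in capitals. Transcript letters are those of GENCODE M21.
miR-7a-5p: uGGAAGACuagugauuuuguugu
1700020I14Rik site: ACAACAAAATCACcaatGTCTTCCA
C230004F18Rik stretch: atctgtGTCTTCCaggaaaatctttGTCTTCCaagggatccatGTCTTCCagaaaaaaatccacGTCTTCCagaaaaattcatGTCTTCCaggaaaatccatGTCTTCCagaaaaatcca

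In the Cyrano site 21 of the 23 bases of miR-7a-5p can pair, the highest number among the 38 members with a seed match when each was searched for its best site. The search let the target bulge by up to 4 bases beyond the length of the miRNA, and other bases within a site could also be unpaired. The next members, Gm27000 and Gm26794, reached 17 bases. The stretch of C230004F18Rik holds 6 seed matches, and its leading transcript of 3354 bases holds 123, or 36.7 per kb. Among the 146 leading transcripts the next highest number was 3, in Gm45159, whose transcript is 25241 bases long. A match to the letters GTCTTCC on the sense strand was present in 26.0% of the members' leading transcripts and in 26.0% of those of 11957 protein-coding genes at the same count minimum. A match is a description of letters, not of binding. The tables list annotated transcripts, and reads of the circular form cannot be told apart from those of the linear one.

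Protein-binding letters marked other abundant members. The gene 2900097C17Rik is the mouse Norad gene, a cytoplasmic RNA known to bind Pumilio proteins, which repress messenger RNAs. Miat, a nuclear RNA of neurons, is known for repeats of a branch-point-like sequence that binds the splicing factor Sf1. A stretch of each is printed, that of 2900097C17Rik at chr2:156390510-156390550 and that of Miat at chr5:112216750-112216814, both on the minus strand of mm10, with the searched letters in capitals.
2900097C17Rik: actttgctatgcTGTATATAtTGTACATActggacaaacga
Miat: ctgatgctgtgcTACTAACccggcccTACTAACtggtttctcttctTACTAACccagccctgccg

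The Pumilio letters TGTANATA occurred 11 times in the leading transcript of 2900097C17Rik (2.24 per kb), the most among the members. The next was Gm7292 with 9 (3.56 per kb), a gene that shares 85.9% of its 31-base words with 2900097C17Rik. Such letters were present in 28.1% of the members and in 28.6% of protein-coding genes. The letters TACTAAC occurred 6 times in Miat and at most 2 times in any other member, and were present in 7.53% of members and in 6.81% of protein-coding genes. All 3 searches used the sense strand of the leading transcript, which in this text is the transcript with the highest share of its gene's TPM.

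**Figure D1:**
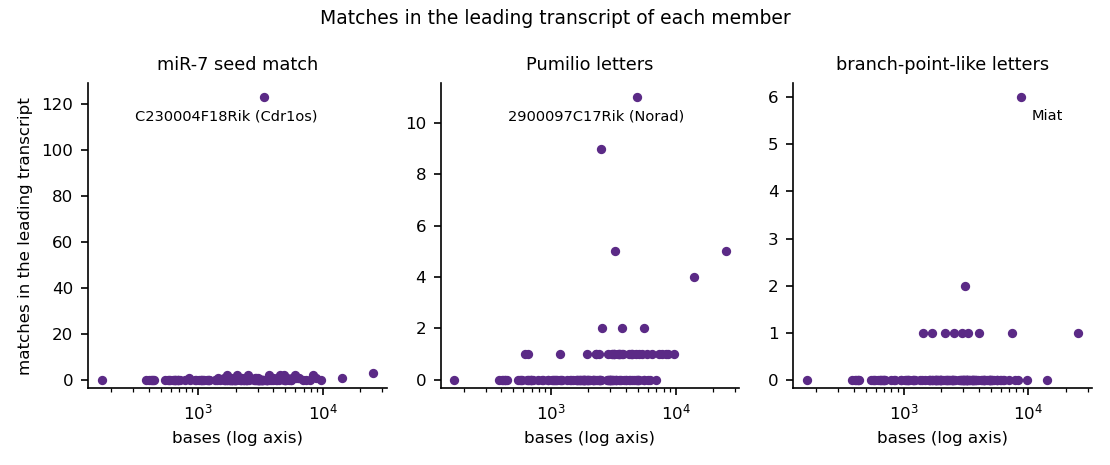
Matches to 3 letter patterns (y axis, number in the leading transcript) against the length of that transcript in bases (x axis, log) for the 146 members, 1 point per member. C230004F18Rik lies at 123 seed matches, 2900097C17Rik at 11 Pumilio matches and Miat at 6 branch-point-like matches.

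Malat1 and the long form of Neat1 end without a poly(A) tail of the usual kind: their 3′ ends are known to fold into a triple helix made of U-rich and A-rich letters, left by cleavage at a tRNA-like structure. The element of Malat1 lies at chr19:5795982-5796079 and the end of the long Neat1 form at chr19:5824708-5824772, both on the minus strand of mm10. Capitals mark the searched letters TTTTTCTTT, TTTTGCTTT and AAAGCAAAA.
Malat1: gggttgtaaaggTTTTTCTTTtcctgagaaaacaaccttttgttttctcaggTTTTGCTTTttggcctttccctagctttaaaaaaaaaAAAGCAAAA
Neat1: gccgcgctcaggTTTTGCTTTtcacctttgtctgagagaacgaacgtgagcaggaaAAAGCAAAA

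All 3 letter runs lay within the last 400 bases of the leading transcript in 1 of 146 members, Malat1, and in 0 of 11957 protein-coding genes. In Malat1 the A-rich run begins 301 bases before the annotated end, so the annotated transcript runs on past it. In the long Neat1 form of 20771 bases, 2 of the 3 runs were found in its last 400 bases. The A-rich one is the last 9 bases of this form. The long form held 22.2% of the Neat1 TPM in replicate 2 and 20.1% in replicate 1. The short form of 3004 bases has none of the 3 runs in its last 400 bases. It held 76.6% in replicate 2 and 78.6% in replicate 1, so the short form was the more abundant in both animals.

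The shortest member was Bc1, a transcript of 168 bases made by RNA polymerase III that is carried into dendrites and represses translation there. It is printed whole because its length sets its values apart, at chr7:144914470-144914637 on the plus strand of mm10, in lower case with no part marked.
Bc1: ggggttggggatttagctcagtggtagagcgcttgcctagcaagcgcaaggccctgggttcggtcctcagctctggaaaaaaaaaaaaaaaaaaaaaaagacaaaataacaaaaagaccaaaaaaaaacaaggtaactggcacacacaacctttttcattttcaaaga

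The gene table gave Bc1 318 counts in replicate 2 and 242 in replicate 1, which at this length came to 215.7 TPM in replicate 2 and 161.1 TPM in replicate 1. It ranked 4th of 146 by TPM and 71st by count, and 40.6% of its 31-base words occur in other genes, 37.7% in Lrrc17. The other quantification listed it at 0 in both libraries, so its level rests on the gene table alone.

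The members as a group were a small part of the transcriptome. By counts and by TPM of the gene table, Malat1 was most of that part. The 146 genes summed to 9416 TPM in replicate 2 and 8018 TPM in replicate 1, 0.878% ± 0.099 of all gene TPM (SD, n = 2). The members held 2.05% of the counts in replicate 2 and 1.64% in replicate 1. Malat1 alone held 63.4% of the members' counts in replicate 2 and 58.7% in replicate 1. The 5 members with the highest counts (Malat1, C230004F18Rik, 2900097C17Rik, 1700020I14Rik and Miat) held 88.6% in replicate 2 and 87.0% in replicate 1. Without those 5 the remaining 141 members came to 1912 TPM in replicate 2 and 1743 TPM in replicate 1. In the other quantification Malat1 was not most of the members' TPM. It had 4165 of 10595.9 TPM there in replicate 2 and 3026 of 8690 TPM in replicate 1.

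Most members were expressed at a few TPM. By mean TPM, 2 members were at 1000 or more, 5 between 100 and 1000, 45 between 10 and 100, 92 between 1 and 10 and 2 below 1. In both animals 144 of 146 members were at 1 TPM or more. The exceptions were C130073E24Rik, with 0.45 TPM in replicate 2 and 0.47 TPM in replicate 1, and Gm46123, with 0.86 TPM in replicate 2 and 0.75 TPM in replicate 1. The median member had 6.61 TPM and 268 counts, against 18.1 TPM and 902 counts for the 11957 protein-coding genes at the same minimum. Antisense noncoding genes at the same minimum, 76 in number, had a median of 5.36 TPM and 172 counts.

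**Figure D2:**
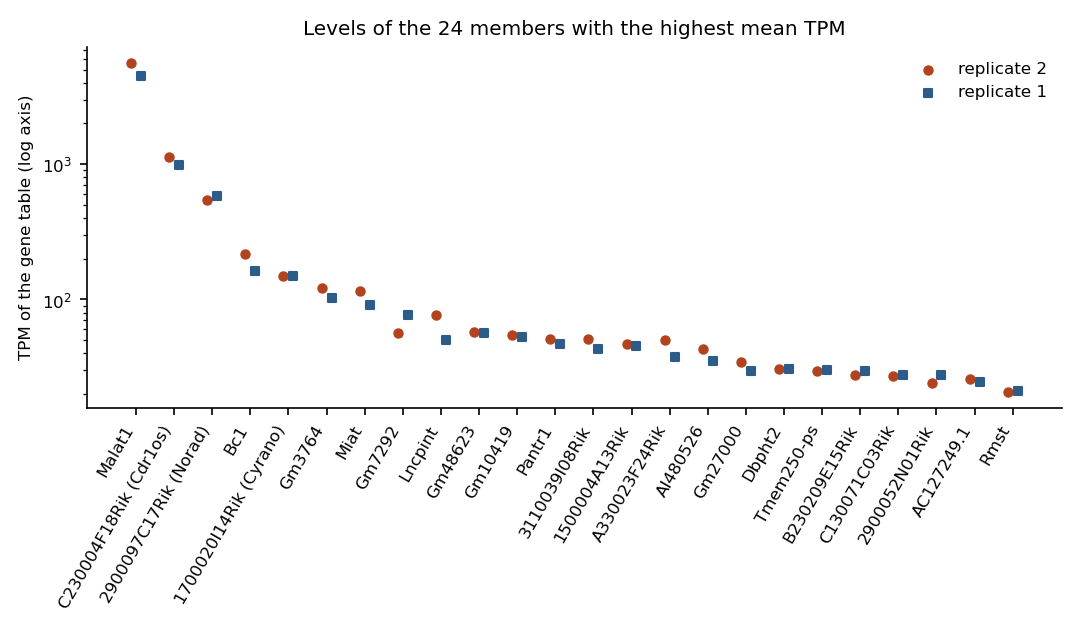
TPM of the gene table (y axis, log) for the 24 members with the highest mean TPM (x axis), circles for replicate 2 and squares for replicate 1. Malat1 was at 5560 TPM in replicate 2 and 4470 TPM in replicate 1, and members from Gm7292 onwards were below 100 TPM.

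Among the nuclear RNAs, Malat1 had 5560 TPM in replicate 2 and 4470 TPM in replicate 1, 5015 ± 771 TPM (SD, n = 2). Neat1 had 21.7 TPM in replicate 2 and 16.6 TPM in replicate 1. Both were higher in replicate 2, Malat1 by a log2 ratio of 0.43 (95% counting interval 0.42 to 0.43) and Neat1 by 0.46 (0.39 to 0.54). These ratios are replicate 2 over replicate 1 of TMM-normalised CPM, counts scaled to library size, and the interval covers counting error only. Firre and Tug1, on the same list of nuclear RNAs, carry other annotation classes and are not members: Firre gave 0.13 (0.02 to 0.23) and Tug1 gave -0.08 (-0.15 to -0.02).

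The genes of proteins in these nuclear bodies all averaged over 1000 counts, where 15.2% of all genes were higher in replicate 2 beyond counting error and 23% were lower. Of 10 paraspeckle protein genes, 3 were higher in replicate 2 beyond counting error, 3 were lower and 4 were within it. Nono, a core paraspeckle protein, was at -0.10 (-0.18 to -0.02). Of 12 nuclear speckle and splicing genes, 6 were higher, 1 was lower and 5 were within counting error. The highest of them was Srrm2, a scaffold of speckles, at 0.20 (0.18 to 0.23), with 299.6 TPM in replicate 2 and 246.7 TPM in replicate 1.

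Of the RNAs known from neural development and neurons, 4 of the 11 listed were members. Of the 9 averaging at least 10 counts, 1 was higher in replicate 2, none was lower and 8 were within counting error. Over all genes averaging at least 100 counts, 12.3% were higher and 15.2% were lower. Miat had 116 TPM in replicate 2 and 91.2 TPM in replicate 1, a log2 ratio of 0.40 (0.37 to 0.44). Pantr1, next to the neural transcription factor gene Pou3f3, had 51.0 TPM in replicate 2 and 46.6 TPM in replicate 1, a difference within counting error at 0.12 (-0.06 to 0.30). C130071C03Rik, which holds a miR-9 hairpin, had 27.0 TPM in replicate 2 and 27.8 TPM in replicate 1. Rmst, an RNA known to bind Sox2 in neurogenesis, had 20.7 TPM in replicate 2 and 20.9 TPM in replicate 1. Miat was thus the only one of these 4 beyond counting error.

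The list for cytoplasmic RNA binding and decay held 3 measured RNAs, and where they lie in the cell was not measured here. Of these, 2 were higher in replicate 2 beyond counting error and 1 was within it. Among all genes averaging at least 1000 counts, 15.2% were higher and 23% were lower. Of the 3, 2900097C17Rik and 1700020I14Rik were close to equal. The Norad gene 2900097C17Rik had 539.7 TPM in replicate 2 and 581.0 TPM in replicate 1, from 52755 counts in replicate 2 and 53198 counts in replicate 1. Cyrano (1700020I14Rik) had 149.1 TPM in replicate 2 and 150.1 TPM in replicate 1. Their log2 ratios were 0.02 (0.001 to 0.04) for 2900097C17Rik and -0.03 (-0.05 to 0.0009) for 1700020I14Rik. The third, C230004F18Rik, had 1140 TPM in replicate 2 and 983 TPM in replicate 1, at 0.26 (0.24 to 0.27).

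The sign of the 2900097C17Rik ratio was not stable: it was -0.001 in the other quantification and -0.11 on the log2(TPM + 1) scale. Of its binding partners, Khdrbs1 was lower in replicate 2, at -0.11 (-0.18 to -0.04), and Pum2 was within counting error at -0.04 (-0.08 to 0.004). On the other strand of C230004F18Rik lies the coding gene Cdr1, which had 1 count in replicate 2 and 1 in replicate 1 against 76319 and 65170 counts of C230004F18Rik in the same animals. The label of the spike-ins names stranded libraries, but whether the counting used strand is not given in the sources used here.

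Ftx and Jpx, which lie beside Xist in the X-inactivation centre, are members on chromosome X. Ftx had 15.4 TPM in replicate 2 and 12.6 TPM in replicate 1, at 0.34 (0.21 to 0.47). Jpx had 5.19 TPM in replicate 2 and 5.24 TPM in replicate 1, at 0.01 (-0.29 to 0.32). Xist itself, the RNA that silences 1 X chromosome in females, had 5 counts in each of these male libraries and is not a member.

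Of 8 RNAs known from growth control and the p53 response, 3 were members. Of the 5 averaging at least 10 counts, 2 were higher in replicate 2, none was lower and 3 were within counting error. The shares over all genes averaging at least 100 counts were 12.3% higher and 15.2% lower. Lncpint, a p53-induced RNA, had 77.0 TPM in replicate 2 and 49.9 TPM in replicate 1, a log2 ratio of 0.74 (0.61 to 0.88). Dleu2, the host of miR-15a and miR-16-1, had 12.5 TPM in replicate 2 and 10.5 TPM in replicate 1, at 0.38 (0.19 to 0.57). Pvt1, the neighbour of Myc, had 11.8 TPM in replicate 2 and 11.5 TPM in replicate 1, a difference within counting error at -0.12 (-0.37 to 0.13). Of the others, Trp53cor1 had 4 counts in replicate 2 against 7 in replicate 1, and Fendrr had 11 counts in replicate 2 against 18 in replicate 1.

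Across all 146 members more were higher in replicate 2 than lower. No member differed at least 2-fold, against 0.226% of the 12817 genes averaging at least 100 counts, a share too small to set the members apart. The interval lay above 0 in 40 members (27.4%), against 12.3% of those genes, and below 0 in 5 members (3.42%), against 15.2%. Scaled to the spike-ins instead, 108 members were higher and 0 were lower. The share of all these genes called under that scaling was not taken. Their median moved to 0.31 and that of the members to 0.40, a gap of 0.09, as with TMM scaling. The members' median log2 ratio was 0.08 (quartiles -0.07 and 0.25, range -0.54 to 0.77). Over all of those genes it was -0.01 (quartiles -0.08 and 0.07), and over the protein-coding ones it was -0.01. The interquartile range was wider in the members, at 0.32 against 0.16 for all of those genes. Between counts of 100 and 1000 it was 0.31 against 0.21. Within that span the members still had lower counts, with a median of 193.5 against 369.5. Counting error is larger at lower counts, and its part in the wider range was not tested.

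Because counting error depends on the count, the shares were also taken between counts of 100 and 1000. There 30 of 125 members (24%) were higher in replicate 2, against 9.84% of 7063 genes, and 2 (1.6%) were lower, against 8.86%. At a count of 1000 or more, 10 of 21 members (47.6%) were higher, against 15.2% of 5754 genes, and 3 (14.3%) were lower, against 23%. Antisense noncoding genes leaned the same way, with 14 of 76 higher, 2 lower and a median ratio of 0.07. Whether the members and this other noncoding class differ was not tested. The striatal and choroid plexus markers given above, and markers of oligodendrocytes (4 of 4 lower in replicate 2, median ratio -0.27), inhibitory neurons (4 of 4 lower, median -0.26) and thalamus (2 of 3 lower, median -0.27), differed between the same libraries, and their part in these ratios was not tested.

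**Figure D3:**
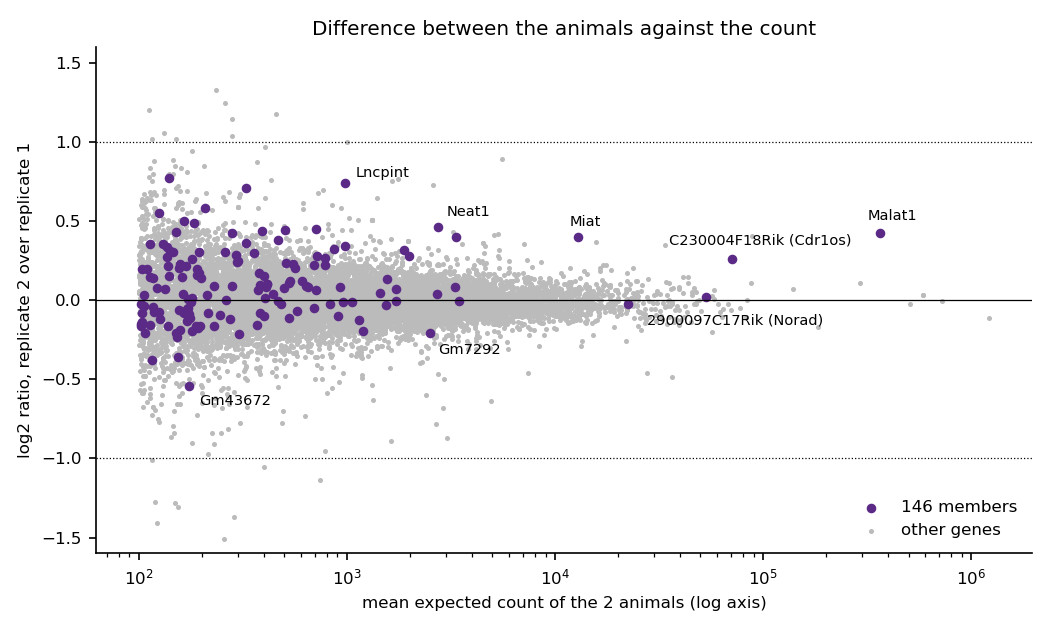
Log2 ratio of replicate 2 over replicate 1 (y axis) against the mean expected count (x axis, log) for the 146 members (purple) and 12660 other genes averaging at least 100 counts (grey). Dotted lines mark 2-fold, 11 other genes lie beyond the axis, and all members fall between -0.54 and 0.77.

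The members that differed most were mostly of low count. Among those whose sign the other quantification shared, the highest ratios belonged to Gm14827, Lncpint, B830012L14Rik, Gm3294 and Gm26890, from 0.77 to 0.55, all beyond counting error. Gm14827, on chromosome X, had 175 counts in replicate 2 and 104 in replicate 1. B830012L14Rik, on chromosome 12 near Rtl1, had 404 counts in replicate 2 and 252 in replicate 1. The 5 lowest were Gm43672, Gm45250, C030037D09Rik, Gm37233 and C730002L08Rik, from -0.54 to -0.22. Of these Gm43672, with 139 counts in replicate 2 and 208 in replicate 1, and C030037D09Rik, with 133 in replicate 2 and 175 in replicate 1, were lower beyond counting error. The other members lower beyond counting error were Gm7292, 2900052N01Rik and Gm20300.

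The presence of a microRNA gene on the same strand within a member's span was not itself part of the rule. Hosts with a symbol ending in hg were left out by that symbol. Among the 146 members such a microRNA gene was found in 20. These hosts include members with some of the best-known microRNAs of the brain. The mature sequences below are from RefSeq (GRCm38.p6), each with its seed in capitals, and are grouped by shared seed. The let-7 seed is held by hairpins in 6720427I07Rik (let-7a-1, let-7d and let-7f-1) and in Lncppara (let-7b and let-7c-2). A let-7a-2 hairpin also lies in 3110039I08Rik. The RefSeq positions used here listed only its 3p sequence, which has another seed, so the seed of its 5p sequence was not read. The miR-9 seed is held by Gm3764 and C130071C03Rik with identical mature sequences, the miR-29 seed by A330023F24Rik for both of its hairpins, and the miR-15/16 seed by both hairpins of Dleu2.
let-7a-5p: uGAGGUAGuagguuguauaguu
let-7d-5p: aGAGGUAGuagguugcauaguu
let-7b-5p: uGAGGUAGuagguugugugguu
miR-9-5p: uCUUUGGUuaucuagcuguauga
miR-29b-3p: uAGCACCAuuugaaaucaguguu
miR-29c-3p: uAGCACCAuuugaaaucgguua
miR-15a-5p: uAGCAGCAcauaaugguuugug
miR-16-5p: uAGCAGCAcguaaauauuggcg
miR-125b-5p: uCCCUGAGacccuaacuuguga
miR-100-5p: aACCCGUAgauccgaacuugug

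The values below are of the host transcripts, not of the mature miRNAs. Of the 20 hosts, 14 were higher in replicate 2 beyond counting error and none was lower, with a median log2 ratio of 0.25. Over all genes averaging at least 100 counts 12.3% were higher and 15.2% were lower. Of the other 126 members, 26 were higher and 5 were lower, with a median of 0.06. The hosts also had higher counts, with a median of 490 against 205, which narrows their intervals, and the split was chosen after these values were seen.

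Several hosts were among the more abundant members. Gm3764 (miR-9-1) had 122.3 TPM in replicate 2 and 102.0 TPM in replicate 1, at 0.32 (0.23 to 0.41). A330023F24Rik (miR-29b-2 and miR-29c) had 50.1 TPM in replicate 2 and 37.7 TPM in replicate 1, at 0.40 (0.33 to 0.47). 3110039I08Rik (miR-100, let-7a-2 and miR-125b-1) had 51.2 TPM in replicate 2 and 42.7 TPM in replicate 1, at 0.28 (0.19 to 0.37). Hosts of related hairpins are given side by side, with no test between them. The other miR-9 host, C130071C03Rik, was at -0.003 (-0.10 to 0.09). Of the let-7 hosts other than 3110039I08Rik, Lncppara was at 0.30 (0.05 to 0.56) and 6720427I07Rik at 0.10 (-0.10 to 0.30). The remaining hosts within counting error were Gm6145, Rmst, AC121821.1 and Gm37233.

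**Figure D4:**
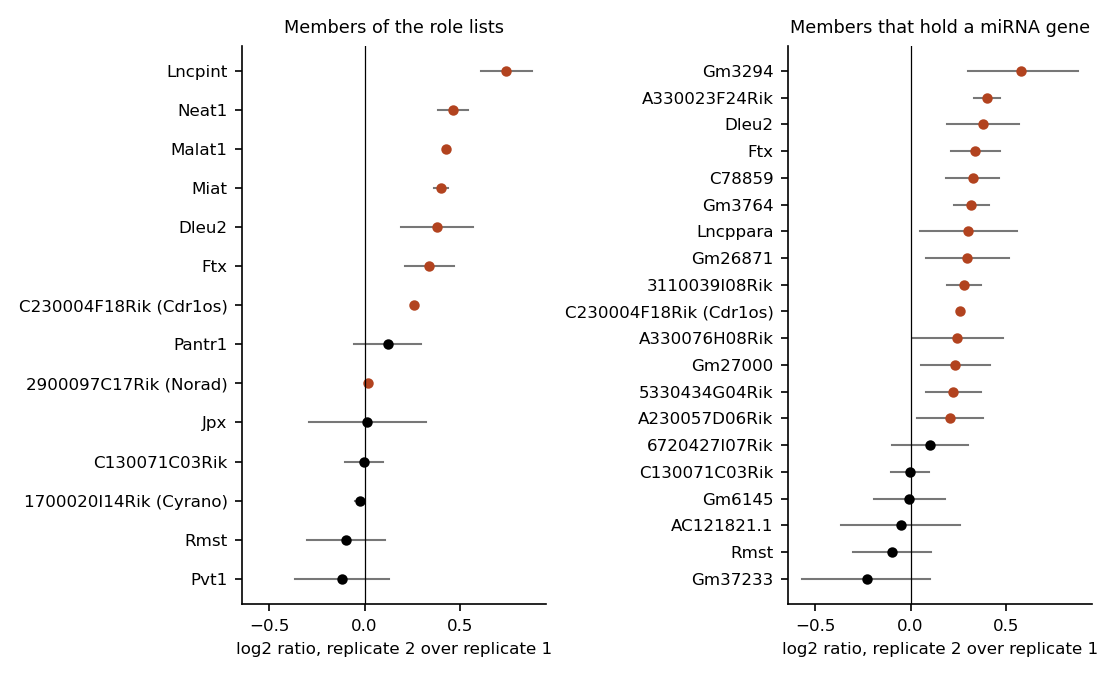
Log2 ratio of replicate 2 over replicate 1 (x axis) with its 95% counting interval for the members of the role lists (left panel) and for the 20 members that hold a miRNA gene (right panel). Red marks an interval above 0 and black one that spans 0, and 14 of the 20 hosts are red.

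The position of the members relative to coding genes varied. In the annotation (mm10), 30 members have a coding gene starting within 5 kb on the other strand in a divergent arrangement, 16 overlap a coding gene on the other strand, 11 overlap one on the same strand and 21 begin within 5 kb after the end of a coding gene on the same strand. None of these held for 73. By chromosome the members were most frequent on 5 (16 members) and 7 (15), and fewest on 4 (2), and 6 lay on X.

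In the divergent pairs the coding gene was usually the more abundant. The median was 4.60 TPM for the lincRNA and 24.6 TPM for the coding gene, and the lincRNA was the higher of the pair in 3 of 30. Those 3 were the most abundant divergent members. Pantr1 had 51.0 TPM in replicate 2 and 46.6 TPM in replicate 1, against 27.2 TPM and 26.7 TPM of Pou3f3 in the same animals. 1500004A13Rik had 46.8 TPM in replicate 2 and 45.1 TPM in replicate 1, against 20.7 and 20.3 TPM of the neighbouring Gon4l. AI480526 had 42.9 TPM in replicate 2 and 35.2 TPM in replicate 1, against 14.3 and 13.02 TPM of Setd1b, which codes for a histone methyltransferase.

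Over the 30 pairs 4 lincRNAs were higher in replicate 2 and 2 lower, and 4 coding genes were higher and 4 lower, against 12.3% higher and 15.2% lower over all genes. Both genes of a pair were higher in 2 pairs. AI480526 and Setd1b were both higher in replicate 2, at 0.28 (0.13 to 0.43) and 0.15, as were 1500004A13Rik and Gon4l, at 0.08 and 0.09. C030037D09Rik and its neighbour Msi2, which codes for a neural RNA-binding protein, were both lower, at -0.36 and -0.07. In the other pairs with a lincRNA beyond counting error the coding gene was within it: Gm43672 was at -0.54 and Tbl1xr1 at 0.01, 2610037D02Rik at 0.50 and Arid2 at -0.08, and Gm20342 at 0.29 and Ino80d at 0.07. The next divergent members by level, 5031425E22Rik beside Kmt2e and 4930570G19Rik beside Negr1, were within counting error, with 14.9 TPM in replicate 2 and 14 TPM in replicate 1 for the first and 11.7 TPM in replicate 2 and 12.2 TPM in replicate 1 for the other.

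Of the 21 members that begin shortly after a coding gene on the same strand, Neat1 is known as a gene of its own, with 21.7 TPM in replicate 2 and 16.6 TPM in replicate 1 against 5.91 and 5.14 TPM of Frmd8 in the same animals. In these pairs the lincRNA was the higher in 4 of 21. For such members, reads that run past the end of the coding gene and reads of a separate lincRNA cannot be told apart in these tables. AI504432, after the potassium channel gene Kcna3, had 12.4 TPM in replicate 2 and 12.1 TPM in replicate 1, against 15.4 and 14.7 TPM of Kcna3.

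Annotated transcript number ranged from 1 for 55 members to 48 for 3110039I08Rik. The median member had 2, against 5 for protein-coding genes at the same minimum, and a median length of 2317 bases against 2648. Among the 91 members with several transcripts the leading one held a median 58.3% of the gene's TPM, with a median SD between the animals of 2.35 percentage points. In Malat1 the leading form of 6983 bases held 47.1% of the TPM in replicate 2 and 43.1% in replicate 1, and the rest was given to forms of 485 to 656 bases. The other quantification gave the leading form a mean of 99.9%, so the share of the short forms depends on the quantification. In C230004F18Rik the form with the 123 seed matches held 89.7% in replicate 2 and 86.7% in replicate 1.

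The split among forms was unstable in a few members. In 2610035D17Rik the leading form held 69.5% of the TPM in replicate 2 and 11.5% in replicate 1, at 176 counts in replicate 2 and 202 in replicate 1. In 6430584L05Rik it held 100% in replicate 2 and 43.2% in replicate 1, and the direction of that gene then depended on the unit. Its counts were 172 in replicate 2 and 130 in replicate 1, a ratio of 0.43 (0.10 to 0.77), while its TPM was 2.64 in replicate 2 and 4.49 in replicate 1. Of 90 members with several transcripts in both quantifications the leading form was the same in 67 and different in 23.

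The other quantification of the same libraries gave higher values for nearly all members. The median log2 ratio of the gene table's TPM over the other TPM was -0.69, against -0.64 for protein-coding genes, a 1.62-fold and a 1.56-fold higher value in the other table. When both were rescaled over 4 gene classes the medians became 0.01 for the members and 0.06 for protein-coding genes. Single members are read against this offset.

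Leaving aside Bc1 and Gm10076, which the other table listed at 0, Malat1 was among 5 members higher in the gene table, with a mean of 5015 TPM in the gene table and 3595 TPM in the other, and with it stood Gm49749, Gm28928, 6430584L05Rik and Gm43597. At the other end AC121821.1 had 7.48 TPM in the gene table and 349 TPM in the other, and Gm43305 had 17.02 TPM in the gene table and 139.8 TPM in the other. Gm27000, AI506816 and Gm20939 were 6.20-fold, 5.35-fold and 3.75-fold higher in the other table. AC121821.1 holds the snoRNA gene Snora74a and a form other than its leading one took 96.5% of its TPM in the other table. Their levels depend on the quantification.

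**Figure D5:**
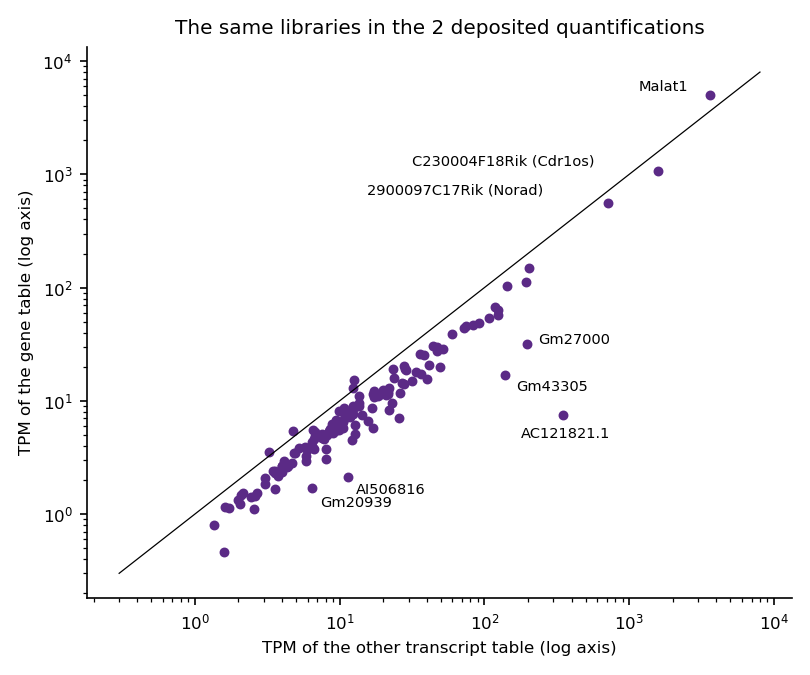
Mean TPM of the gene table (y axis, log) against mean TPM of the other transcript table (x axis, log) for 144 members, with the line of equal values. Malat1 lies above the line, and AC121821.1 at 7.48 TPM in the gene table and 349 TPM in the other lies farthest below it.

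Sequence shared with other genes limits several members. In 16 of the 146, over 20% of the 31-base words on the same strand occur in another gene, and in 5 the deposited posterior SD exceeds 5% of the count. Gm27000 shares 96.2% of its words with Meg3, an imprinted noncoding gene, and for its 34.5 TPM in replicate 2 and 29.4 TPM in replicate 1, reads of the pair cannot be told apart. Gm49749 lies within Pcnx and shares 100% of its words with it. Gm10076 shares 82.2% with the ribosomal protein gene Rpl41, and the other quantification listed it at 0.

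The Norad copy Gm7292 had 56.8 TPM in replicate 2 and 76.7 TPM in replicate 1, at -0.21 (-0.29 to -0.13), a sign that turned to 0.11 under spike-in scaling. Its words make up 43.9% of those of 2900097C17Rik, so counts could pass between these genes. Of 2900097C17Rik, by contrast, the posterior SD was at most 0.12% of the count, and of Gm7292 it was at most 2.48%.

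Another annotation classed some members differently. RefSeq (GRCm38.p6) matched 90 members by symbol and listed 81 as lncRNA, 6 as protein-coding 2 as pseudogenes and 1 as a transcribed pseudogene. The 6 are Dbpht2, Tmem250-ps, 1810058I24Rik, Gm46430, Gm5165 and Gm20939. Dbpht2 was the most abundant of them by count, with 30.6 TPM in replicate 2 and 30.7 TPM in replicate 1. 1810058I24Rik carries the RefSeq synonym Stmp1, a gene for a mitochondrial micropeptide.

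At the edge of the rule, the members just inside the minimum were AI506816, Gm10076 and Gm26794, with mean counts of 102.7, 102.1 and 102. Just outside were 6430590A07Rik, Gm20063 and Gm44644, with mean counts of 99.1, 96.5 and 95.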

How the data were processed

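Total RNA of the left cerebral cortex was sequenced in 1 library from each of 2 animals, and 3 tables per library were used. Expected counts, which need not be whole, and TPM per gene and per transcript are as deposited, from a transcriptome alignment to mm10 with GENCODE M21, per the file headers and the accompanying description. A transcript's percent of its gene's TPM and the posterior SD of the count, a score in reads, are deposited by the authors in the same tables. The estimated counts and TPM of the other transcript table, called the other quantification, were made from 1 sequence file, per its description, and summed per gene. For the programs behind these tables, the aligner included, a name is not given in the sources used here.

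Expected counts were rounded, and rows for spike-ins and the rows naming no gene (2.48e-05% of counts in replicate 2 and 1.78e-05% in replicate 1) were left out. The log2 ratio of replicate 2 over replicate 1 used CPM after TMM scaling, prior count 2, over 18480 genes averaging at least 10 counts (edgeR 4.0.16, R 4.3.3). Its 95% interval is the exact conditional binomial (Clopper-Pearson) one and holds counting error alone, since reads without molecular identifiers may be copies of 1 molecule. The steps were tested on simulated counts that held counting error alone. That test does not show how the interval behaves under the wider spread of these libraries. Over all genes fitted, the chi-square of the counts was 6.42 per degree of freedom and the biological coefficient of variation 0.063, a spread above counting noise that copied reads could also raise. Spike-ins held 0.345% of counts in replicate 2 and 0.428% in replicate 1.

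Positions and transcript letters are from GENCODE M21 (mm10), mature miRNAs from RefSeq. Named members are the 12 highest by TPM and by count, the 5 most different in each direction whose sign the other quantification shared, those of the role lists, those at the threshold, the 5 at each end of the comparison of quantifications and the 5 most abundant divergent members. Others named for small RNA genes, transcript forms, shared sequence, RefSeq class or low TPM were chosen after their values were seen. The members, lists and rules were chosen with earlier results of these data known. Alternatives were DESeq2 1.42.0 size factors, spike-in and total-count scaling, the other quantification, other pseudocounts and minimums, and each animal left out in turn. Some list genes are not reported here.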

Additional observations from a re-analysis of the deposited data

How the results depend on the processing

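DESeq2 size factors and the total count kept the side of counting error of all 46 named members for which they were run. Over all members the total count left 4 lower, against 5 with TMM. A prior count of 0.5 enters the ratio but not the interval, and gave the members a median of 0.08. Spike-in scaling gave a median of 0.40 for the members and 0.31 for all genes averaging at least 100 counts, against 0.08 and -0.01 with TMM. It put 108 members above counting error, 0 below it and 3 past 2-fold, and the shares of all genes called under it were not taken. The other quantification put 1 member past 2-fold, Gm49749 at 1.45, and gave 52.1% as the median share of the leading transcript, against 57.75% for the same members in the gene table. A count minimum of 10 (641 genes) gave 21 past 2-fold (3.28%), 61 higher (9.52%) and 16 lower (2.50%), and a minimum of 500 (46 genes) gave 22 higher (47.8%) and 3 lower (6.52%). The shares over all genes at minimums of 10 and 500 were not taken, so these counts are not read against a background. Of the members, 87 were at 5 TPM or more in both animals. Without Malat1 the summed TPM was 3702, against 8717 with it. The comparison of the quantifications changed sign after rescaling, to 0.012. Leaving out either animal gave a summed TPM of 8018 to 9416, a median ratio of the quantifications of -0.72 to -0.66, 144 members at 1 TPM or more and a median leading share of 57.0% to 59.0%.

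Single members reversed under some settings. 2900097C17Rik was at -0.0010 in the other quantification and at -0.11 on both TPM scales. Gm7292 was at 0.11 under spike-in scaling. Gm43305 was at -0.00080 on log2(TPM + 1) and at -0.00084 on log2(TPM + 0.1). 6430584L05Rik was at -0.59 on log2(TPM + 1) and at -0.74 on log2(TPM + 0.1). The cause was not tested. With 2 libraries, a difference cannot be told apart from the spread between animals, and at low counts the counting interval limits what can be seen. No paired analysis was possible because both libraries belong to 1 group.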
